A study of Saccharomyces cerevisiae with 8 samples.

Results

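The septins of Saccharomyces cerevisiae were followed through the first hours of meiosis in 4 strains of the SK1 background, all of them diploid. The 7 genes are the sporulation-specific septins SPR3 (YGR059W) and SPR28 (YDR218C) and the mitotic septins CDC3 (YLR314C), CDC10 (YCR002C), CDC11 (YJR076C), CDC12 (YHR107C) and SHS1 (YDL225W). They were chosen by name, out of 5656 genes with a probe set on the Affymetrix YG-S98 array, and each has 1 probe set, of the gene-specific type. The locus tag gives the chromosome and arm of each gene. The strains were mre11delta (YMD1599), rad50delta (RKD101), spo11Y135F (RKD1312) and wild type (MJL1720), each sampled 4 h and 0 h after the shift to sporulation medium. A strain and time has a single array, which makes 8 arrays, so the strains are the only replicates. Mre11 and Rad50 belong to a complex that makes and processes meiotic DNA breaks, and Spo11 makes the cut. The Y135F change replaces its catalytic tyrosine. The labels call 4 h prophase and 0 h premeiosis.

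Septins are GTP-binding proteins that join end to end into rods and filaments under the plasma membrane. In budding cells Cdc3, Cdc10 and Cdc12 form rods that are capped by Cdc11 or Shs1, and the filaments make the collar at the bud neck on which cytokinesis proteins assemble. In sporulating cells septins lie along the prospore membranes that enclose the spores, and in complexes made from the sporulation-specific subunits Spr3 takes the place of Cdc12 and Spr28 that of Cdc11, beside Cdc3 and Cdc10.

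Values are MAS5 signals on a linear scale. The median signal of an array lay between 97.3 and 196, and the trimmed mean differed 1.88-fold between the brightest and the dimmest array. RAD50 (YNL250W) read 3.4 and 0.6 in rad50delta at 4 h and 0 h, and 88.4 to 758 on the other 6 arrays. MRE11 (YMR224C) read 108 (4 h) and 84.0 (0 h) where the label says mre11delta. The other 6 arrays, with 45.0 to 192, enclose these values, so that directions given for mre11delta rest on the label. RNA of 3 arrays was extracted with Trizol, both arrays labelled mre11delta and wild type at 0 h, and RNA of the other 5 with RNeasy columns. Within wild type, time and extraction method cannot be told apart. Strain and method cannot be told apart either where mre11delta is set against wild type at 4 h, or rad50delta or spo11Y135F against wild type at 0 h. In bulk RNA, more cells in meiosis and more RNA per cell also cannot be separated.

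Both sporulation-specific septins and the mitotic septins CDC3 and CDC10 were higher at 4 h than at 0 h, while CDC11, CDC12 and SHS1 did not pass the test. SPR28 rose 22.7-fold, SPR3 18.9-fold, CDC3 3.88-fold and CDC10 3.47-fold, as estimates over the 4 strains. The genes that rose include the subunits named above for the sporulation complexes, and the 3 that did not pass are CDC12 and the genes of the alternative caps of the mitotic rod, CDC11 and SHS1. Whether CDC3 and CDC10 changed more than those 3 was not tested. The 95% intervals of the log2 change of CDC10 (0.65 to 2.94) and SHS1 (-0.52 to 1.80) overlapped. Of the 7 septins 4 were called higher and 0 lower at an adjusted p under 0.05, against 10.6% and 4.02% of the 5475 genes tested. The median log2 change of the septins was 1.80, and that of all tested genes was 0.19. The test was limma on log2(signal + 7), with the strains as blocks and Benjamini-Hochberg adjustment over all tested genes.

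SPR3, which encodes a septin made in sporulation, read 49.5 on the array labelled mre11delta, 2225 in rad50delta, 2630 in spo11Y135F and 331 in wild type at 4 h. At 0 h it read 22.1 on the array labelled mre11delta, 24.5 in rad50delta, 19.5 in spo11Y135F and 28.9 in wild type. The groups did not overlap, but the array labelled mre11delta at 4 h came close to the 0 h values, while those of rad50delta and spo11Y135F lay far above all others. The log2 change was 4.24 ± 0.71 (limma's SE, n = 4 strains, limma adjusted p = 0.000221). This gave it rank 77 among the 5475 tested genes ordered from the largest rise. Limma draws the variance of each gene towards a trend over all tested genes. Its SE and p, here and below, therefore do not measure the spread of the 4 strains alone. For SPR3 the changes of the strains ran from 0.96 to 6.64. Signals at 0 h lay near the floor of 21, a mean signal below which genes were not tested, so the size of the fold depends on the pseudocount. The call was lost with quantile normalization (limma adjusted p = 0.0520).

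SPR28, which encodes the other sporulation-specific septin, read 77.6 on the array labelled mre11delta, 1664 in rad50delta, 2218 in spo11Y135F and 321 in wild type at 4 h. At 0 h it read 7.7 on the array labelled mre11delta, 26.3 in rad50delta, 35.9 in spo11Y135F and 11.4 in wild type. All 4 arrays at 4 h were above all 4 at 0 h, where the arrays labelled mre11delta and wild type were under the floor. The log2 change was 4.51 ± 0.57 (limma adjusted p = 9.01e-06), with rank 66 among the tested genes. It was 4.93 with a pseudocount of 1 and 3.91 with 3 times the main pseudocount, and the call was kept in all 17 alternative settings that were run.

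CDC3, which encodes a core subunit of both kinds of rod, read 234 on the array labelled mre11delta, 1181 in rad50delta, 975.0 in spo11Y135F and 198 in wild type at 4 h. At 0 h its signal was 102 on the array labelled mre11delta, 87.9 in rad50delta, 194 in spo11Y135F and 116 in wild type. The groups did not overlap by a narrow margin, 198 in wild type at 4 h against 194 in spo11Y135F at 0 h. Its log2 change was 1.96 ± 0.59 (limma adjusted p = 0.0261).

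CDC10, the subunit at the centre of the rod, had a signal of 1209 on the array labelled mre11delta, 3169 in rad50delta, 5622 in spo11Y135F and 961 in wild type at 4 h. At 0 h the signals were 563 on the array labelled mre11delta, 473 in rad50delta, 818 in spo11Y135F and 634 in wild type. The lowest value at 4 h, in wild type, was again above the highest at 0 h, in spo11Y135F. Its log2 change was 1.80 ± 0.55 (limma adjusted p = 0.0303).

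The calls of CDC3 and CDC10 were close to the threshold. They were lost with median centring (limma adjusted p = 0.0666 for CDC3 and 0.0810 for CDC10), with quantile normalization (adjusted p = 0.0801 and 0.0651), without wild type (adjusted p = 0.0684 and 0.0610) and without rad50delta (adjusted p = 0.309 and 0.229). The call of CDC10 was also lost without spo11Y135F (adjusted p = 0.108). Among the 17 alternatives CDC3 stayed called in 12 and CDC10 in 11, and the direction was the same in all of them. Over all tested genes, 14.4% had their 4 arrays at 4 h above all 4 at 0 h, as SPR3, SPR28, CDC3 and CDC10 did.

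**Figure D1:**
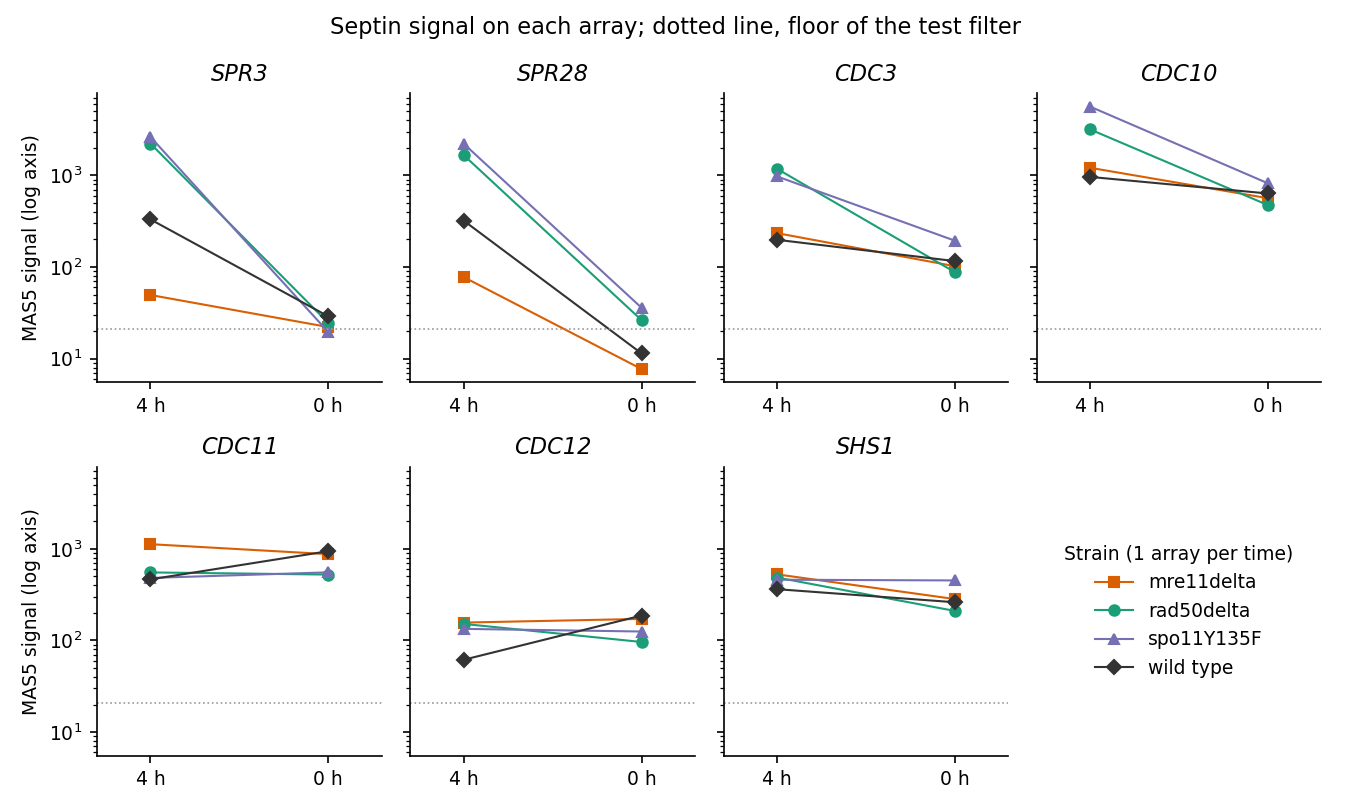
MAS5 signal (log axis) of each septin at 4 h and 0 h, with a line for each strain (1 array per time) and a dotted line at the floor of 21. SPR3 and SPR28 leave the floor in all strains, furthest in rad50delta and spo11Y135F, CDC3 and CDC10 are highest in the same 2 strains at 4 h, and CDC11, CDC12 and SHS1 overlap between the times.

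CDC11, which encodes a cap of the mitotic rod, had a signal of 1124 on the array labelled mre11delta, 553 in rad50delta, 481 in spo11Y135F and 464 in wild type at 4 h. At 0 h the signal was 875 on the array labelled mre11delta, 524 in rad50delta, 554 in spo11Y135F and 943 in wild type. The groups overlapped, and the log2 change was -0.19 ± 0.56, with a 95% interval from -1.36 to 0.97 (limma adjusted p = 0.855).

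CDC12, whose place in the rod Spr3 takes in sporulation, read 157 on the array labelled mre11delta, 152 in rad50delta, 134 in spo11Y135F and 61.6 in wild type at 4 h. At 0 h it read 172 on the array labelled mre11delta, 96.3 in rad50delta, 125 in spo11Y135F and 187 in wild type. Its log2 change was -0.23 ± 0.53 (95% interval from -1.33 to 0.87, limma adjusted p = 0.818). Without wild type the estimate was positive for both genes, 0.08 for CDC11 and 0.19 for CDC12.

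SHS1, the alternative cap, read 527 on the array labelled mre11delta, 487 in rad50delta, 460.5 in spo11Y135F and 363 in wild type at 4 h, against 283, 210.2, 452 and 262 at 0 h in the same order of strains. It was higher at 4 h in 4 of 4 strains, but only by 0.03 on the log2 scale in spo11Y135F, and the groups overlapped. The log2 change of 0.64 ± 0.56 had a 95% interval from -0.52 to 1.80 (limma adjusted p = 0.493). These intervals do not show that the 3 genes stayed at one level, since each includes changes of at least 0.87 on the log2 scale.

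The signals of CDC11 and CDC12 separated the arrays by extraction method. CDC11 read 875 to 1124 on the 3 Trizol arrays and 464 to 554 on the 5 RNeasy arrays, and CDC12 read 157 to 187 on the Trizol arrays and 61.6 to 152 on the RNeasy arrays. The other 5 septins overlapped between the methods. Of all tested genes 9.88% were higher on all 3 Trizol arrays without overlap and 0.621% were lower, against 2 and 0 of the 7 septins. In wild type, the part of extraction in the changes of CDC11 and CDC12 cannot be told apart from that of time. Within rad50delta and spo11Y135F, where both times were extracted with RNeasy, the log2 changes were 0.08 and -0.20 for CDC11 and 0.62 and 0.09 for CDC12.

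**Figure D2:**
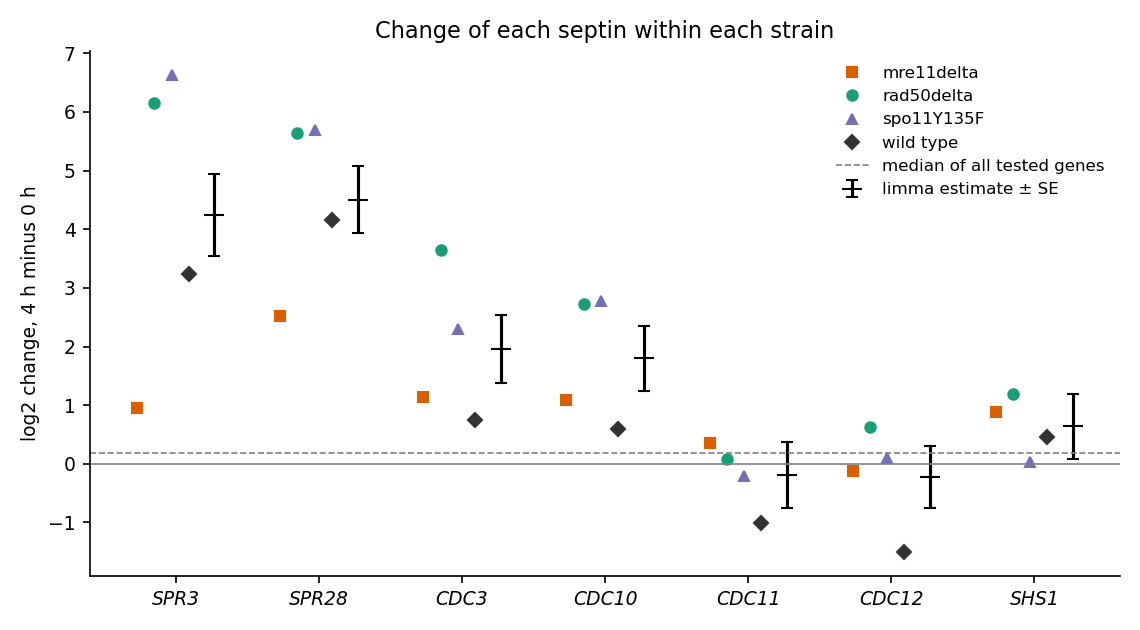
Log2 change of each septin, 4 h minus 0 h, in each strain (symbols, 1 pair of arrays each) beside limma's estimate over the 4 strains with its SE; the dashed line is the median of all tested genes, 0.19. SPR3 runs from 0.96 on the arrays labelled mre11delta to 6.64 in spo11Y135F, while CDC11, CDC12 and SHS1 lie between -1.50 and 1.18.

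The change differed widely between strains for the genes that rose. SPR3 rose 1.94-fold on the arrays labelled mre11delta, 70.9-fold in rad50delta, 99.5-fold in spo11Y135F and 9.41-fold in wild type. SPR28 was 5.76-fold higher on the arrays labelled mre11delta, 50.2-fold in rad50delta, 51.9-fold in spo11Y135F and 17.8-fold in wild type. For CDC3 the folds were 2.21 on the arrays labelled mre11delta, 12.5 in rad50delta, 4.89 in spo11Y135F and 1.67 in wild type. CDC10 was 2.13-fold higher on the arrays labelled mre11delta, 6.62-fold in rad50delta, 6.82-fold in spo11Y135F and 1.51-fold in wild type. Each fold is a pair of single arrays on the scale of the signal plus 7 and has no error of its own. The folds are not corrected for array brightness. The median log2 change of all tested genes was 0.74 on the arrays labelled mre11delta, 0.61 in rad50delta, -0.12 in spo11Y135F and -0.37 in wild type. On the arrays labelled mre11delta the log2 changes of SPR3 (0.96), CDC3 (1.15) and CDC10 (1.09) were thus close to that of the median gene.

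Counted within a strain, 5 of 7 septins were at least 2-fold higher at 4 h in rad50delta (34.4% of all tested genes), 4 in spo11Y135F (22.7%), 3 on the arrays labelled mre11delta (40.6%) and 2 in wild type (15.5%). The share on the arrays labelled mre11delta is near that of all genes. No septin was at least 2-fold lower in rad50delta (5.94% of all tested genes), in spo11Y135F (26.2%) or on the arrays labelled mre11delta (10%). In wild type 2 septins, CDC11 and CDC12, were at least 2-fold lower at 4 h, as were 31.1% of all tested genes. The fold of CDC11 there was 2.02 and that of CDC12 was 2.83, both as 0 h over 4 h.

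The changes of SPR3 and SPR28 were set against those of each mitotic septin on the same arrays. SPR28 changed more than CDC3 by 2.55 ± 1.03 and more than CDC10 by 2.71 ± 0.90 on the log2 scale (SD, n = 4 strains), and more in 4 of 4 strains. SPR3 exceeded CDC3 by 2.29 ± 1.87 and CDC10 by 2.45 ± 1.80, in 3 of 4 strains each, with the arrays labelled mre11delta at -0.19 and -0.14. Against CDC11, CDC12 and SHS1 the mean differences of SPR3 and SPR28 ran from 3.61 to 4.74, with SDs from 1.42 to 2.83, and were positive in 4 of 4 strains. On the arrays labelled mre11delta those of SPR3 were only 0.60, 1.09 and 0.08, in the same order of genes. Those of SPR28 there were 2.17, 2.65 and 1.65. In an exact two-sided sign-flip permutation test over the 4 strains, 8 of the 10 differences had p = 0.125, the smallest p this design allows, and the other 2 had p = 0.250 (Benjamini-Hochberg adjusted 0.156 and 0.250). None of the 10 can therefore pass a threshold of 0.05.

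At 4 h, rad50delta and spo11Y135F had more SPR3, SPR28, CDC3 and CDC10 signal than wild type, and the arrays labelled mre11delta had less SPR3 and SPR28. SPR3 was 6.61-fold higher in rad50delta and 7.80-fold higher in spo11Y135F than in wild type, and SPR28 was 5.10-fold and 6.79-fold higher. CDC3 was 5.79-fold higher in rad50delta and 4.79-fold higher in spo11Y135F than in wild type, and CDC10 was 3.28-fold and 5.81-fold higher. On the array labelled mre11delta SPR3 was 5.98-fold and SPR28 3.87-fold below wild type, while CDC3 and CDC10 were within 1.26-fold of it.

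These comparisons have no replicate and no test, and the arrays differ in brightness. At 4 h the array labelled mre11delta is the only one extracted with Trizol, so its differences from wild type and from the other mutants cannot be told apart from the method. The median gene was higher than in wild type at 4 h by 0.94 on the log2 scale on the array labelled mre11delta, by 0.65 in rad50delta and by 0.32 in spo11Y135F. Relative to the median gene, SPR3 was higher by 2.08 in rad50delta and 2.64 in spo11Y135F, and CDC3 by 1.89 and 1.93. On the same relative scale SPR3 stood at -3.52 and SPR28 at -2.89 on the array labelled mre11delta against wild type, CDC3 at -0.70 and CDC10 at -0.61. At least 2-fold above wild type were 5 of 7 septins in rad50delta (29.7% of all tested genes), 5 in spo11Y135F (30.6%) and 2 on the array labelled mre11delta (46.5%). On that array 2 were at least 2-fold below wild type (1.55% of all genes), SPR3 and SPR28, and none was in rad50delta (0.457%) or spo11Y135F (11.2%).

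Strains at least 2-fold outside the range of the remaining 3 at 4 h were then listed. The array labelled mre11delta was the lowest for SPR3 by 5.98-fold and for SPR28 by 3.87-fold, and 1.39% of all tested genes lay at least 2-fold below the other strains there. It was also the highest for CDC11, by 2.02-fold (12.2% of all genes), a gene whose signals separated by extraction method. Wild type was the lowest for CDC12, by 2.05-fold (13.9% of all genes).  The strains spanned 1.35-fold for SPR3 at 0 h, against 46.7-fold at 4 h, both on the scale of the signal plus 7. At 0 h the mutants ran from 0.532 of the wild type value, for CDC12 in rad50delta, to 2.33 times it, for SPR28 in spo11Y135F, where the signals of 35.9 in spo11Y135F and 11.4 in wild type were close to the floor. Both set RNeasy arrays against the Trizol array of wild type, and CDC12 separated by method.

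**Figure D3:**
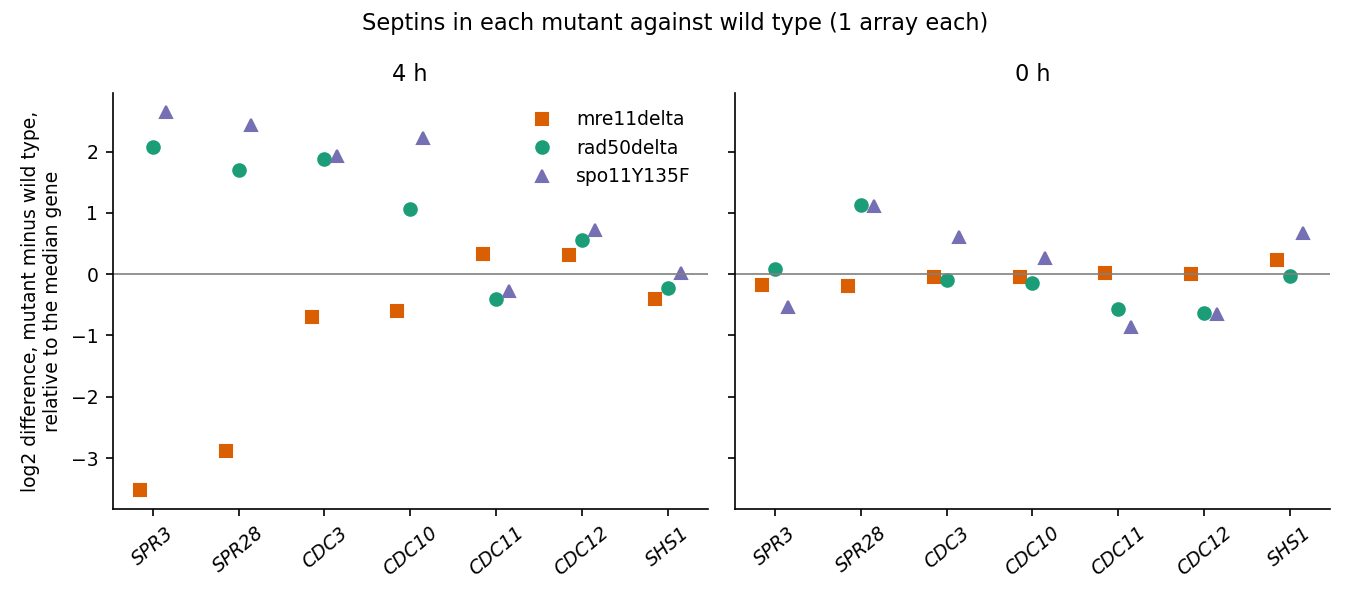
Log2 difference of each septin, mutant minus wild type, after subtracting the median gene's difference, at 4 h (left) and 0 h (right); each symbol compares 1 array with 1 array. At 4 h SPR3 lies at 2.08 and 2.64 in rad50delta and spo11Y135F and at -3.52 on the array labelled mre11delta, and at 0 h the septins lie between -0.86, for CDC11 in spo11Y135F, and 1.13, for SPR28 in rad50delta.

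Genes for proteins that work at the prospore membrane were higher at 4 h, as SPR3 and SPR28 were. Of 24 genes listed as prospore membrane partners, with leading edge and outer spindle plaque genes among them, 23 rose and 0 fell. Among all tested genes 10.6% were called higher and 4.02% lower. NUD1, a spindle plaque gene, alone did not pass (log2 change -0.93 ± 0.51). The calls are over the 4 strains, and not every called gene was higher at 4 h in each strain, as SPR3 and SPR28 were. On the arrays labelled mre11delta the log2 change was -1.66 for SMA1, -0.96 for SMA2 and -0.01 for SSP1. GIP1 (YBR045C), which encodes the phosphatase subunit needed to organize septins in spores, rose by 5.05 ± 0.63 (limma adjusted p = 7.41e-06), or by 6.21 with a pseudocount of 1 and 4.03 with 3 times the main one. At 4 h it read 74.1 on the array labelled mre11delta, 1733 in rad50delta, 2240 in spo11Y135F and 93.6 in wild type, against 1.6 to 26.6 at 0 h. YSW1 (YBR148W), a prospore membrane protein, rose by 4.23 ± 0.64, with 127 on the array labelled mre11delta, 2284 in rad50delta, 3536 in spo11Y135F and 340 in wild type at 4 h, against 29.2 to 45.3 at 0 h. Both show the order of strains seen for SPR3 and SPR28 at 4 h. ADY3 (YDL239C), a leading edge coat protein, rose by 5.15 ± 0.56, SPO19 (YPL130W), a sporulation protein of the prospore membrane, by 4.98 ± 0.74, and the kinase SPS1 (YDR523C) by 4.97 ± 0.71. At 0 h SPO19 read 9.4 to 14.9 and SPS1 5.1 to 25.5, near or under the floor, so these sizes depend on the pseudocount too. The median change of the list was 3.54.

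Among 20 middle meiotic genes, NDT80 and genes known as targets of this transcription factor, 17 rose and 0 fell, with a median change of 3.42. The shares among all tested genes were 10.6% higher and 4.02% lower. CDA1, a spore wall chitin deacetylase, rose by 6.70 ± 0.62, the RNA-binding protein gene PES4 by 6.18 ± 0.63, the spore wall gene SPS2 by 6.02 ± 0.69 and the sporulation gene SPR2 by 5.56 ± 0.92. All signals of these genes at 0 h were under the floor of 21, so the sizes depend on the pseudocount. The signals ran from 1.1 to 9.7 for CDA1, 5.6 to 20.5 for PES4, 1.0 to 11.7 for SPS2 and 2.2 to 15.6 for SPR2. On the arrays labelled mre11delta SPR2 read 2.9 at 4 h against 2.7 at 0 h. Some genes called higher over the strains were not higher in each. On the arrays labelled mre11delta the log2 change was -0.88 for SMK1, -0.50 for SPS4 and -0.04 for CLB6, and in wild type it was -0.0009 for CLB3. With median centring 9 of the 20 rose, with quantile normalization 9 and without wild type 11. Members of this list and of the prospore membrane list were included because they are known sporulation genes.

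Genes for factors that build and hold the mitotic septin collar were called about as often as genes in general. Of 25 tested genes for septin assembly and regulation 2 rose, 0 fell and 23 did not pass, against 10.6% higher and 4.02% lower among all tested genes, with a median change of 0.13, below the 0.19 of all genes. The 2 were KCC4 (YCL024W), a kinase of the bud neck, at 3.10 ± 0.53 (limma adjusted p = 0.000321) and AFR1 (YDR085C), a septin-binding protein of the mating projection, at 2.12 ± 0.52 (adjusted p = 0.00743). KCC4 read 253 on the array labelled mre11delta, 74.8 in rad50delta, 140 in spo11Y135F and 81.5 in wild type at 4 h, against 3.1, 4.2, 14.8 and 13.8 at 0 h in the same order. Its strains thus ran in another order than those of SPR3. All 4 signals of KCC4 at 0 h were under the floor, and its change was 3.86 with a pseudocount of 1 and 2.29 with 3 times the main one. With all probe sets of a gene averaged it was 1.42 and not called (limma adjusted p = 0.0590), and the call of AFR1 was lost without wild type (adjusted p = 0.0597).

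Of 21 bud neck genes of cytokinesis and septum formation 1 rose, 1 fell and 19 did not pass, against 10.6% higher and 4.02% lower among all tested genes, with a median change of 0.35. CHS2 (YBR038W), the chitin synthase of the primary septum, fell by 2.16 on the log2 scale (SE 0.57, limma adjusted p = 0.0120). It read 66.9 on the array labelled mre11delta, 41.7 in rad50delta, 45.4 in spo11Y135F and 4.0 in wild type at 4 h, against 110 to 236 at 0 h. DBF20 (YPR111W), a kinase of late mitosis, rose by 1.73 ± 0.52 (adjusted p = 0.0253), with 88.9 to 450.0 at 4 h against 46.4 to 90.0 at 0 h. Without wild type, whose CHS2 signal at 4 h was under the floor, CHS2 changed by -1.40, and both calls were lost (limma adjusted p = 0.116 for CHS2 and 0.0501 for DBF20), while that of DBF20 was lost in the fits that left out rad50delta (0.204) or spo11Y135F (0.0730) too.

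**Figure D4:**
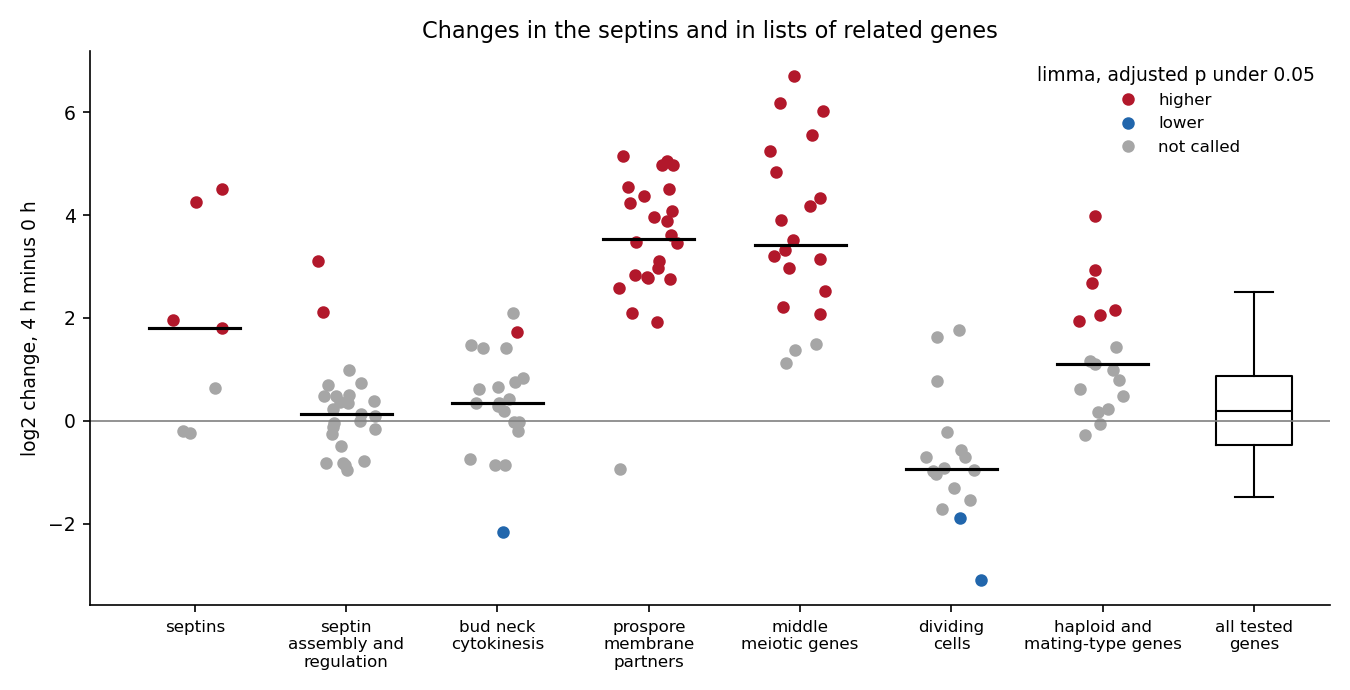
Log2 change over the 4 strains, 4 h minus 0 h, of each septin and of each tested gene in 6 lists of related genes (points, coloured by the limma call, with the median as a bar), beside a box of all tested genes (quartiles, whiskers leaving out the lowest and the highest 5%). The prospore membrane and middle meiotic lists lie highest, with medians of 3.54 and 3.42, and the median of the septins is 1.80.

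Markers of other cell states were read beside the septins. Of 16 marker genes of dividing cells 2 fell and 0 rose, DSE2 by 3.10 and CLN1 by 1.89 on the log2 scale, and 14 did not pass, against 4.02% lower and 10.6% higher among all tested genes. Without wild type neither of the 2 was called (limma adjusted p = 0.176 for DSE2 and 0.132 for CLN1). The summed signal of the 16 markers at 4 h was 4678 on the array labelled mre11delta, 4126 in rad50delta, 6294 in spo11Y135F and 848 in wild type, against 3499 to 6048 at 0 h. In this sum wild type at 4 h lay far below the other arrays, and there the time cannot be told apart from the extraction method. CDC20 alone gave 4563 of the sum in spo11Y135F and 2155 in rad50delta at 4 h, against 257 and 196 at 0 h. The median log2 change of the markers was -1.47 in wild type, -1.96 in spo11Y135F, -0.50 in rad50delta and 0.11 on the arrays labelled mre11delta. For all tested genes it was -0.37, -0.12, 0.61 and 0.74 in the same order. Of 17 tested genes specific to haploid or mating-type cells 6 rose and 0 fell, against 10.6% higher and 4.02% lower among all tested genes, with STE18 at 2.92 ± 0.76, AXL1 at 2.68 ± 0.51, STE3 at 2.15 ± 0.50 and MFA1 at 3.97 ± 0.55, the last on a shared probe set only and therefore uncertain. STE18 was not called without wild type (limma adjusted p = 0.104) or without spo11Y135F (0.0685), and its signals at 0 h, 4.6 to 19.3, were under the floor. Their summed signal was 1946 to 8321 at 4 h and 878 to 1594 at 0 h. NEJ1 and the assembly factor BUD4 had mean signals under the floor and were not tested, though in spo11Y135F at 4 h NEJ1 read 117.5 and BUD4 22.3. The part of either cell state in the septin changes was not tested.

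The genes most like each septin were found by Pearson's r of the log2 values over the 8 arrays, among 5284 genes with a gene-specific probe set. The arrays share strains and 2 times, so these values are descriptions. Closest to SPR3 were SPO19 (r = 0.997), YDL114W (0.995), CDA2 (0.995), RRT5 (0.994) and LOH1 (0.989), and closest to SPR28 were IRC18 (0.992), DTR1 (0.991), YSW1 (0.991), SPS2 (0.990) and PIR5 (0.990). CDA2 encodes a chitin deacetylase of the spore wall and DTR1 a transporter of the dityrosine precursor of the spore wall. CDC3 lay closest to CBC2 (0.984), a cap-binding protein gene, and SSU72 (0.979), and CDC10 to ISW2 (0.996), a chromatin remodelling gene, and NKP1 (0.996). For CDC11 these were YBR220C (0.973) and NIT3 (0.972), for CDC12 UPA2 (0.977) and SNR75 (0.975), and for SHS1 PRS2 (0.982) and NFU1 (0.979).

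Between septins, r was 0.98 for SPR3 with SPR28 and 0.97 for CDC3 with CDC10, and the sporulation-specific septins had r from 0.92 to 0.93 with CDC3 and CDC10. With CDC11 they had r of -0.53 and -0.57, and CDC11 with CDC12 had r of 0.70. The lists of the 5 closest genes for SPR3 and for SPR28 shared no gene, and the 2 genes closest to CDC3 and to CDC10 came from neither list. The values of r within a list were close to each other. Lists this short do not show that the septins differ in the genes most like them.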

How the data were processed

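The authors deposited 1 signal intensity per probe set and array, computed with MAS5 per the submitters' processing notes. The sources used here give neither the MAS5 version nor the array scaling. Biotinylated cRNA came from 3 microg of mRNA, per the labels' protocols. Of 9335 probe sets 6504 carry 1 gene in the platform annotation, 328 carry several and 2503 carry none, and the 6504 were matched by gene identifier to the RefSeq table of assembly R64. Of each gene (5656) a single probe set was used, the plain type first and then the highest mean. Intensities were used as deposited, as log2 of the signal plus 7, the 10th percentile of all deposited values, and the 5475 genes whose mean reached 21 were tested.

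The 4 strains served as replicates of a time in limma 3.58.1 (R 4.3.3), blocked by strain (the pairing comes from the strain labels) with 3 residual degrees of freedom, a trend of variance on mean, two-sided tests and Benjamini-Hochberg adjustment at 0.05. The fit was run on simulated data with planted changes and noise drawn independently for each array. That checks the fit itself and does not test whether the strains can serve as replicates. Nothing in the labels gives replicate cultures of a strain, so the fit draws its error from strain-to-strain spread alone. Limma's SE and p use that spread after drawing it towards the trend over all tested genes. Precision is limited by how few arrays there are. The sign-flip test over strains was exact. The members and lists were chosen with earlier results of these data known. Named genes are the septins, the mutated genes, up to 4 called genes with the largest change in each list, GIP1, YSW1, and the genes most like each septin. Alternatives changed the scaling, pseudocount, filter, probe sets, block, trend, extraction method and strains. Scaling to the 2% trimmed mean was added after seeing the data.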

Additional observations from a re-analysis of the deposited data

Results flagged for a closer look

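CDC11 and CDC12 changed in opposite directions in different strains, a difference that was not tested because each strain has 1 array per time. CDC11 had a log2 change, 4 h minus 0 h, of 0.36 on the arrays labelled mre11delta and of -1.01 in wild type. The log2 change of CDC12 was 0.62 in rad50delta and -1.50 in wild type. In wild type alone, the 4 h and 0 h samples were extracted by different methods. Dixon's criterion was applied to 21 sets of 4 values, 3 for each septin, and marked 0 of them. With 4 widely spread values it marks little, and SPR3 and SPR28 were 5.98-fold and 3.87-fold lower on the array labelled mre11delta at 4 h than in the nearest other strain.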

How the results depend on the processing

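All 17 alternatives kept SPR3, SPR28, CDC3, CDC10 and SHS1 above 0. SPR3 ran from 3.45 to 6.39 and was 3.95 (not called) with quantile normalization, and SPR28 ran from 3.91 to 5.67. CDC3 and CDC10 were not called with median centring (1.55 and 1.40), quantile normalization (1.61 and 1.60) or extraction method as a covariate (2.36 and 2.20). Extraction method varies within wild type alone, so that covariate and the fit without wild type use the mutants alone. Over the fits without 1 strain each, CDC3 ran from 1.39 to 2.36, CDC10 from 1.47 to 2.20, CDC11 from -0.38 to 0.079 and CDC12 from -0.51 to 0.19. With extraction as a covariate, and without wild type, CDC11 was 0.079 and CDC12 0.19, and in the RNeasy pairs CDC12 was 0.36. Septins called higher numbered 2 with median centring, 1 with quantile normalization, 2 with extraction as a covariate and 2 to 4 without 1 strain each. The median gene changed by 0.19 as deposited, -0.22 with median centring, -0.09 with quantile normalization and 0.09 with trimmed mean scaling. Relative to it, SPR3 was 4.04 with quantile normalization and 4.06 as deposited.

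In the septin assembly list, 1 gene rose with extraction as a covariate or with averaged probe sets, 4 rose and 2 fell in the RNeasy pairs, 2 fell with median centring, 1 fell with quantile normalization, and 1 to 2 rose without 1 strain each. In the bud neck list, 2 rose with trimmed mean scaling, with 3 times the pseudocount, with the floor of 70 and with no replicate block, 5 rose and 0 fell in the RNeasy pairs, 0 fell with extraction as a covariate and 2 fell with median centring, while 0 to 3 rose and 0 to 1 fell without 1 strain each. With median centring 1 prospore membrane gene fell. Middle meiotic genes that rose numbered 9 with median centring, 9 with quantile normalization and 11 to 19 without 1 strain each. Of the dividing cell markers 1 rose with the floor of 70, 3 rose and 6 fell in the RNeasy pairs and 0 fell with extraction as a covariate, while 0 to 2 rose and 0 to 6 fell without 1 strain each. Of the haploid genes 3 rose with no replicate block and 3 to 5 without 1 strain each. Over all genes, 582 rose and 220 fell as deposited, 409 and 560 with median centring, 418 and 392 with quantile normalization, 346 and 36 with extraction as a covariate and 859 and 355 in the RNeasy pairs. The cause of these shifts was not tested.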

Other observations

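In 11 of the 21 bud neck genes both rad50delta and spo11Y135F were above the array labelled mre11delta and wild type at 4 h, as for SPR3, while in 9 the array labelled mre11delta was the highest and 1 had another order. The share of all tested genes with each order was not counted, and the arrays differ in brightness. The counts therefore do not set the bud neck genes apart from other genes. The 3 genes that follow, outside the naming rule, were chosen for the first order after their values were seen. CDC5 (YMR001C), the polo kinase, read 268 on the array labelled mre11delta, 4311 in rad50delta, 5054 in spo11Y135F and 619 in wild type at 4 h, against 182 to 555 at 0 h, and its log2 change of 2.10 ± 0.73 did not pass (limma adjusted p = 0.0586). CHS3 (YBR023C), the chitin synthase that also serves the spore wall, read 653 on the array labelled mre11delta, 1396 in rad50delta, 2235 in spo11Y135F and 538 in wild type at 4 h, against 319 to 434 at 0 h (log2 change 1.41 ± 0.58, limma adjusted p = 0.111). IQG1 (YPL242C), a scaffold of the cytokinetic ring, read 58.2 on the array labelled mre11delta, 225 in rad50delta, 426 in spo11Y135F and 24.2 in wild type at 4 h, against 48.7 to 85.8 at 0 h. BNI1 had the second order, with 1166 on the array labelled mre11delta, 718 in rad50delta, 515 in spo11Y135F and 397 in wild type.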
